A study of Mus musculus with 10 samples.

Results

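The miR-344 family is a group of mouse microRNAs (miRNAs) made from a run of related hairpins on chromosome 7. It was followed here in small RNA libraries from embryonic cortex in which Dicer or DGCR8 had been deleted conditionally. The 6 member names were miR-344-3p, miR-344b-3p, miR-344c-3p, miR-344d-3p, miR-344f-3p and miR-344f-5p, out of 1432 mature names in the deposited table. Every table entry with one of these names was used, whatever its 3′ suffix, which made 124 entries, 74 of them with a read. The members had been taken from a list of miRNAs described as made without DGCR8, because all called rises of that list in DGCR8 knock-out cortex were members of this family. Their rises in that comparison are therefore given as a description, with no test.

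Cortex was taken at embryonic stage E13.5 from 2 mouse lines in 5 groups of 2 libraries each. In the Dicer line these were Dicer wild type (Dicer WT) and Dicer knock-out (Dicer KO). The DGCR8 line gave wild-type, heterozygous and knock-out cortex, called DGCR8 WT, DGCR8 HET and DGCR8 KO below. The design text speaks of conditional knock-outs and of 2 mice per genotype. Not given in the sources used here are the driver of the deletion, the cells it reached and any conditional alleles of the controls. Neither Dicer nor Dgcr8 messenger RNA is measured by small RNA reads, so the genotype labels could not be checked on the deleted gene. The DGCR8 columns of the table were matched to samples by line and index number, since another number in their names differed from the descriptions, and every DGCR8 value rests on that match.

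Most miRNAs are cut from a long primary transcript in the nucleus by Drosha with its partner DGCR8, and the resulting hairpin is trimmed by Dicer in the cytoplasm to a short duplex. One strand of the duplex is loaded into an Argonaute protein, where bases 2 to 8, the seed, pair with target messenger RNAs. Some hairpins are released without DGCR8, for example spliced introns or short capped transcripts, and still need Dicer. Loss of DGCR8 and loss of Dicer can thus be told apart by miRNAs of this second kind. The 3′ end of a mature miRNA can also be extended by enzymes that add uridine or adenosine, which reads show as T or A.

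The mature sequences are shown to compare the seeds, which are in capitals. They are RefSeq entries on GRCm38.p6, written 5′ to 3′, and all 6 members and all 16 miR-344 names of the table matched an entry. The last line is a miRNA of another chromosome that shares a seed with a member.
miR-344-3p: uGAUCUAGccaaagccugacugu
miR-344c-3p: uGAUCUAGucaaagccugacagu
miR-344b-3p: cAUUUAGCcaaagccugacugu
miR-344f-3p: cUCUAGCCaggaccugacuac
miR-344f-5p: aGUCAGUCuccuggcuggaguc
miR-344d-3p: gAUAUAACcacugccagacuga
miR-410-3p: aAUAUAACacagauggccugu

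The 6 members carry 5 different seeds. miR-344-3p and miR-344c-3p share the seed GAUCUAG, and 21 of their 23 bases are identical. miR-344b-3p has 20 of its 22 bases in common with miR-344-3p, including an unbroken run of 18 bases (uagccaaagccugacugu). That run starts at base 6 of miR-344-3p and base 5 of miR-344b-3p. The base just before it differs as well, and the seed of miR-344b-3p is AUUUAGC. The seed of miR-344f-3p, UCUAGCC, lies inside miR-344-3p as part of a shared run of 8 bases that starts at base 4 of miR-344-3p and base 2 of miR-344f-3p. miR-344d-3p has the seed AUAUAAC, which RefSeq also gives to miR-344e-3p and to miR-410-3p, a miRNA of the imprinted Dlk1-Dio3 region. miR-344f-5p is the opposite arm of the hairpin that holds miR-344f-3p and shares no seed with the others. Because miR-344-3p, miR-344b-3p and miR-344c-3p are so alike, and how a read matching more than one name was counted is not stated in the sources used here, reads could have been split among these 3 names.

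The hairpins lie on the minus strand of mouse chromosome 7 (GRCm38), with 13 of them in 402 kb at chr7:61683124-62085310. The nearest protein-coding genes are Ndn, 261 kb above the cluster in coordinates, and Snrpn, 1543 kb below it, both known from the imprinted region that corresponds to that of Prader-Willi syndrome. miR-344-3p comes from 2 hairpins, Mir344 at chr7:61877770-61877864 and Mir344-2 at chr7:61940027-61940106. miR-344d-3p comes from 3, which are Mir344d-1 at chr7:61683124-61683192, Mir344d-2 at chr7:61685272-61685351 and Mir344d-3 at chr7:61726249-61726328. The others have 1 hairpin each, Mir344b at chr7:61790519-61790581, Mir344c at chr7:61837311-61837402 and Mir344f at chr7:62046181-62046248. In GENCODE M21, Mir344, Mir344c, Mir344b and Mir344d-3 lie in introns of the long non-coding RNA gene A230057D06Rik and Mir344-2 in an intron of A330076H08Rik, both on the same strand as the hairpins. Mir344f, Mir344d-2 and Mir344d-1 lie between annotated genes. Identical mature copies cannot be assigned to a hairpin, so the value of miR-344-3p or miR-344d-3p is a sum over its copies.

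**Figure D1:**
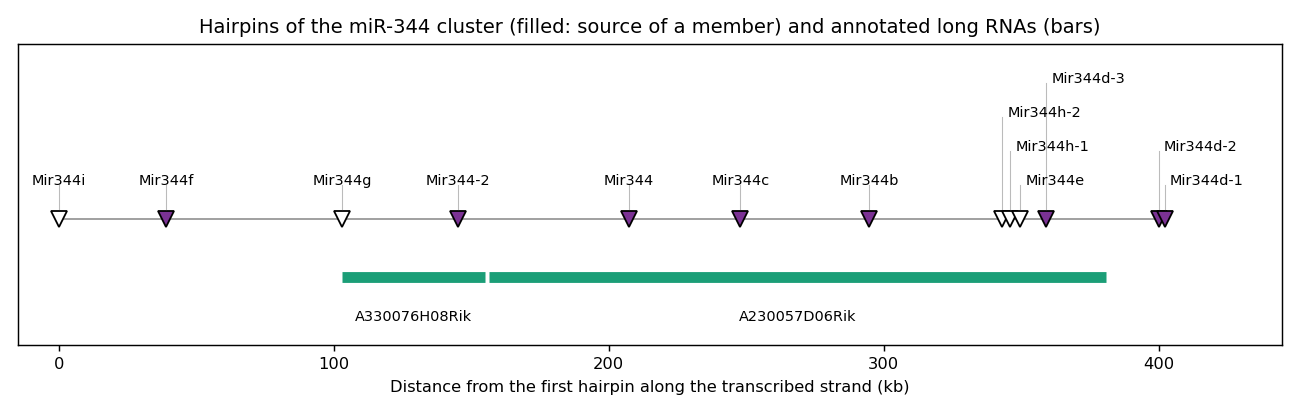
Map of the 13 miR-344 hairpins along the transcribed strand, with the distance from the first hairpin in kb on the horizontal axis. Filled triangles are the 8 hairpins that give a member, open triangles the other hairpins, and bars the 2 long RNA genes annotated on the same strand, A330076H08Rik and A230057D06Rik. Member hairpins are spread over the cluster and not gathered at one end.

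Nearly all reads of Mir344, Mir344-2, Mir344c and the Mir344d copies came from the 3′ arm, unlike those of Mir344f. The deposited table has no opposite-arm name for Mir344b or Mir344d-2. Mir344b was therefore not compared, and opposite-arm reads of Mir344d-2 are not counted. To show where the arm lies, 3 hairpins are printed with the 3′ mature sequence in capitals.
Mir344: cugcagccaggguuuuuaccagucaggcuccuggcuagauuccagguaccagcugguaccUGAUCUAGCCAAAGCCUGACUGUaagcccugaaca
Mir344d-1: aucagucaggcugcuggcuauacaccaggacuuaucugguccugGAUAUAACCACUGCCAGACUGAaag
Mir344f: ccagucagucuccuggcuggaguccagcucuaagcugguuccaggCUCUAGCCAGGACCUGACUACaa
miR-344-3p had 8072 reads over the 10 libraries against 3 of miR-344-5p, which puts 99.96% of the reads on the 3′ arm (exact Clopper-Pearson 95% interval 99.89% to 99.99%, counting error only). miR-344c-3p had 601 reads against 1 of miR-344c-5p. miR-344d-3p had 1038 against 8 of the 2 opposite-arm names in the table, miR-344d-1-5p and miR-344d-3-5p. Mir344f stood apart, with 1247 reads of miR-344f-3p and 181 of miR-344f-5p, or 87.3% on the 3′ arm (85.5% to 89.0%). In the single libraries the 3′ share of Mir344f ran from 81.2% in Dicer WT replicate 2 to 96.9% in Dicer KO replicate 2, where only 1 read of miR-344f-5p was seen. The other 10 miR-344 names of the table held 41 reads in all libraries together, 22 of them miR-344e-3p, and none of the 10 passed the count filter described next.

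Counts were summed over suffixes for each mature name, and 557 names passed edgeR's filterByExpr by group, all 6 members among them. Libraries held from 800623 to 4486774 miRNA reads. The mean of Dicer WT was 4.76 times that of Dicer KO, so a Dicer KO library rests on fewer reads. Levels are CPM, counts put on a common library size after TMM scaling (trimmed mean of M values), which sets each miRNA against the others of its library and does not see a loss shared by all miRNAs. In these bulk libraries, fewer cells of a type and less RNA per cell cannot be told apart. All 7 miRNAs of a cortical progenitor and neuron list were present in every library, but their summed share of reads was lower in both knock-outs. It was 21.7% and 24.2% in Dicer WT, 13.6% and 12.2% in Dicer KO, 20.5% and 22.3% in DGCR8 WT, 21.6% and 21.1% in DGCR8 HET, and 15.1% and 14.95% in DGCR8 KO. In each knock-out 4 of the 7 were called lower than wild type and 1 higher. The vessel and blood list took 1.27% and 1.02% of Dicer WT reads against 3.36% and 3.94% in Dicer KO, where 9 of 13 tested were called higher. In the DGCR8 line it took 0.610% and 0.609% of wild-type reads, 0.601% and 0.969% of heterozygous reads, and 1.08% and 0.966% of knock-out reads, where 2 of 13 were called higher. The choroid plexus and epithelial list took 0.348% and 0.934% in Dicer WT, 0.810% and 2.05% in Dicer KO, 0.145% and 0.148% in DGCR8 WT, 0.118% and 0.572% in DGCR8 HET, and 0.343% and 0.153% in DGCR8 KO. In each knock-out 1 of its 11 tested miRNAs was called higher and 0 lower. Replicates within each group differed by more than counting error.

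The 6 members differed widely in level, and miR-344-3p was the most abundant in every library. It took from 58.3% of the family's reads in Dicer KO replicate 2 to 80.1% in Dicer WT replicate 1. Mature lengths run from 21 to 23 bases and a read covers the whole mature miRNA, so CPM values are compared between members without a length correction. In DGCR8 WT the order of mean CPM was miR-344-3p at 322 ± 12.2 (SD, n = 2 as for all SDs here), miR-344f-3p at 40.9 ± 2.32, miR-344d-3p at 33.1 ± 2.72, miR-344c-3p at 30.1 ± 3.59, miR-344f-5p at 5.80 ± 2.01 and miR-344b-3p at 5.63 ± 2.89. There the libraries of miR-344d-3p and miR-344c-3p overlapped, as did those of miR-344f-5p and miR-344b-3p. In Dicer WT miR-344-3p stood at 221 ± 20.6, miR-344f-3p at 24.5 ± 4.35, miR-344d-3p at 12.8 ± 3.06, miR-344c-3p at 12.1 ± 2.13, miR-344b-3p at 6.72 ± 1.23 and miR-344f-5p at 4.44 ± 0.756. The pair miR-344d-3p and miR-344c-3p overlapped there too.

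miR-344-3p, the founding member, lay at 236 and 207 CPM in the Dicer WT libraries and at 249 and 204 CPM in Dicer KO. It lay at 330.4 and 313 CPM in DGCR8 WT, 344 and 335 CPM in DGCR8 HET, and 660.0 and 658 CPM in DGCR8 KO. The Dicer groups overlapped, the DGCR8 HET libraries lay just above DGCR8 WT, and the DGCR8 KO libraries lay well above all 8 others. miR-344c-3p, which has the same seed, lay at 10.6 and 13.6 CPM in Dicer WT, against 14.97 and 13.3 CPM in Dicer KO. Its levels were 32.6 and 27.5 CPM in DGCR8 WT, 30.1 and 25.3 CPM in DGCR8 HET, and 53.1 and 41.4 CPM in DGCR8 KO. For miR-344c-3p only DGCR8 KO stood clear of the wild type of its line, while the whole DGCR8 line lay above the Dicer line.

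miR-344d-3p, the member with the seed of miR-410-3p, lay at 10.6 and 14.9 CPM in Dicer WT, against 23.0 and 91.9 CPM in Dicer KO. The 2 Dicer KO libraries were thus both above Dicer WT but far from each other, and rest on 23 and 76 reads. In the DGCR8 line it lay at 34.99 and 31.1 CPM in the wild type, 55.3 and 36.6 CPM in the heterozygote, and 108 and 105 CPM in the knock-out. miR-344f-3p lay at 27.6 and 21.5 CPM in Dicer WT, against 61.9 and 37.5 CPM in Dicer KO. Its levels were 42.5 and 39.3 CPM in DGCR8 WT, 67.5 and 50.2 CPM in DGCR8 HET, and 117 and 110.3 CPM in DGCR8 KO. For both miRNAs each knock-out lay above the wild type of its line, and DGCR8 HET lay above DGCR8 WT and below DGCR8 KO.

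miR-344b-3p and miR-344f-5p were sparse. The Dicer WT libraries held 21 and 29 reads of miR-344b-3p and the Dicer KO libraries 1 and 2, which made 5.86 and 7.59 CPM against 0.998 and 2.42 CPM. In the DGCR8 line it ran from 3.58 to 10.8 CPM, and the wild type and knock-out overlapped. For miR-344f-5p the Dicer WT libraries held 14 and 19 reads and the Dicer KO libraries 8 and 1, or 3.91 and 4.97 CPM against 7.99 and 1.21 CPM. In the DGCR8 line it lay at 4.37 and 7.22 CPM in the wild type, 10.02 and 6.54 CPM in the heterozygote, and 15.8 and 17.8 CPM in the knock-out.

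**Figure D2:**
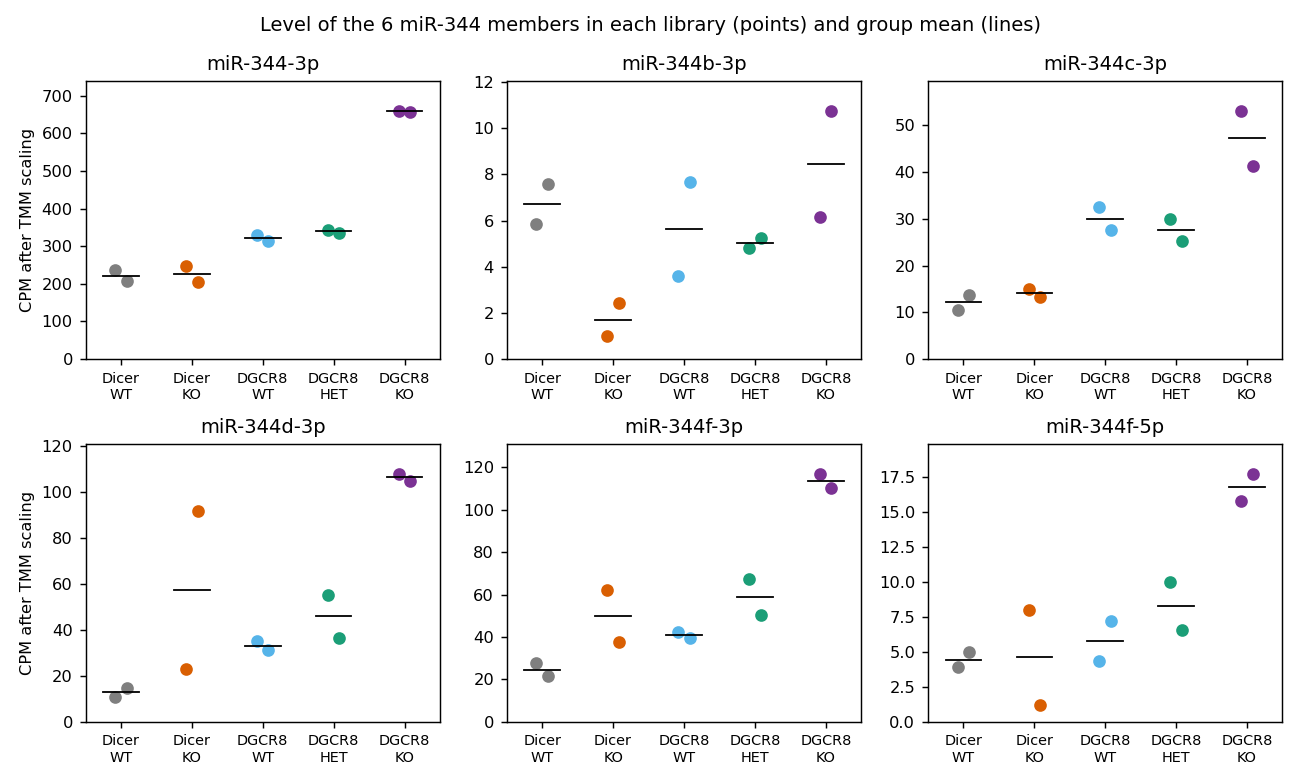
CPM after TMM scaling of each member, by group on the horizontal axis. Points are the 2 libraries of a group and lines their mean, and every vertical axis starts at 0. miR-344-3p lies at 660.0 and 658 CPM in DGCR8 KO, and miR-344d-3p lies at 23.0 and 91.9 CPM in the 2 Dicer KO libraries.

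Dicer KO was compared with Dicer WT in mice that played no part in choosing the family, to ask how its members fared when the last processing enzyme was deleted. 2 of the 6 members rose relative to the other miRNAs, 0 fell and 4 were not called. miR-344d-3p was 4.43-fold higher (log2 fold change 2.15 ± 0.53, SE of the fit, adjusted p = 0.0153) and miR-344f-3p 2.04-fold higher (1.03 ± 0.29, adjusted p = 0.0249). These are p-values of edgeR's quasi-likelihood test over all 10 libraries, adjusted by Benjamini-Hochberg over 557 names. Of all tested names 14.9% were called higher and 30.9% in either direction, so 2 of 6 members called is near the background. Both Dicer KO libraries lay above both Dicer WT libraries for these 2 members, as for 33.2% of all tested names. The rise of miR-344d-3p in Dicer KO was already known when the family was chosen.

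Neither rise held in every fit that left out 1 library. Without Dicer KO replicate 2, the library with 91.9 CPM, the log2 fold change of miR-344d-3p was 0.78 (adjusted p = 0.199), and without Dicer WT replicate 1 it was 1.92 (adjusted p = 0.0692). miR-344f-3p was at 0.53 without Dicer KO replicate 1 (adjusted p = 0.204), at 0.84 without Dicer WT replicate 2 (adjusted p = 0.138) and at 0.97 without either DGCR8 KO library (adjusted p = 0.0539 and 0.0538). The call of miR-344f-3p was also lost when every name with a read was fitted (0.86, adjusted p = 0.0565), in reads without additions (0.44, adjusted p = 0.554) and when each line had its own fit (1.01, adjusted p = 0.0851). Dicer KO replicate 2 also had the highest share of choroid plexus and epithelial miRNAs, 2.05% of its reads, the highest of vessel and blood miRNAs, 3.94%, and the lowest of cortical progenitor and neuron miRNAs, 12.2%. The part of these shifts in the members' values was not tested.

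The abundant miR-344-3p was not called in Dicer KO (0.0360 ± 0.17, adjusted p = 0.880), nor was miR-344c-3p (0.23 ± 0.30, adjusted p = 0.595) or miR-344f-5p (0.13 ± 0.62, adjusted p = 0.892). miR-344b-3p had the lowest value, −1.998 ± 0.70 (adjusted p = 0.0575), with both Dicer KO libraries below both Dicer WT libraries, as for 33.4% of all tested names. It was called lower when every name with a read was fitted (−2.17, adjusted p = 0.0136). The median log2 fold change of the members was 0.18, against −0.00913 over all 557 names. Above 0 lay 5 of 6 members and 275 of all 557 names. With scaling to vessel and blood miRNAs, under which the median over all names shifted by −1.43, 1 of 6 members lay above 0. On that scale miR-344-3p was called lower (−1.39, adjusted p = 0.00725), as was miR-344b-3p (−3.35, adjusted p = 4.85e-04), and neither miR-344d-3p (0.64, adjusted p = 0.299) nor miR-344f-3p (−0.38, adjusted p = 0.505) was called. Directions in Dicer KO are thus relative to the miRNAs used for scaling.

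In DGCR8 KO against DGCR8 WT, the comparison that the family was chosen from, 4 of 6 members had been called higher, where 8.8% of all tested names were, and this choice is why nothing is read from the count. The description is as follows. miR-344d-3p had the largest log2 fold change, 1.69 ± 0.50, a fold of 3.22. miR-344f-5p followed at 1.53 ± 0.46, miR-344f-3p at 1.47 ± 0.28 and miR-344-3p at 1.03 ± 0.16, the last a fold of 2.05 with the smallest error of the family. Of the members that were not called, miR-344c-3p lay nearest the threshold at 0.65 ± 0.25, and miR-344b-3p lay farther from it at 0.57 ± 0.45. The DGCR8 KO libraries did not overlap DGCR8 WT for 5 of the 6 members, all higher, as for 32.9% of all tested names. Without any 1 of these 4 libraries 0 or 1 member was called, and 5 to 10 of the 595 to 603 names that then passed the filter. Beside these values, the DGCR8 KO libraries had more vessel and blood reads (1.08% and 0.966%, against 0.610% and 0.609%) and fewer cortical progenitor and neuron reads than DGCR8 WT, and the part of these shifts in the members' values was not tested.

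The sign of these values did not depend on the scaling alternatives tried. On library totals, which moved the median of all names by 0.41, the median of the 6 members was 1.67, and with DESeq2 size factors it was 1.36, against 1.25 in the fit reported. With scaling to vessel and blood miRNAs, under which that median shifted by −0.45, all 6 members lay above 0 with a median of 0.80 and 0 were called. On that scale the values were 1.24 for miR-344d-3p, 1.09 for miR-344f-5p, 1.02 for miR-344f-3p, 0.58 for miR-344-3p, 0.20 for miR-344c-3p and 0.14 for miR-344b-3p.

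The share of miRNA reads taken by the 6 members shows the same samples scaled by library totals alone. It was 0.0263% and 0.0229% in Dicer WT, against 0.0364% and 0.0362% in Dicer KO. It was 0.0432% and 0.0390% in DGCR8 WT, 0.0497% and 0.0426% in DGCR8 HET, and 0.124% and 0.114% in DGCR8 KO. Exact Clopper-Pearson 95% intervals ran from 0.0407% to 0.0458% for DGCR8 WT replicate 1 and from 0.119% to 0.129% for DGCR8 KO replicate 1. Knock-out libraries lay above wild type in each line, and the members still made up a small part of all miRNA reads. On library totals most called names were higher in the knock-outs, 126 of 188 in Dicer KO and 105 of 119 in DGCR8 KO. An exact permutation test of 2 against 2 libraries cannot go below p = 0.333 (two-sided), so these shares were not tested.

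**Figure D3:**
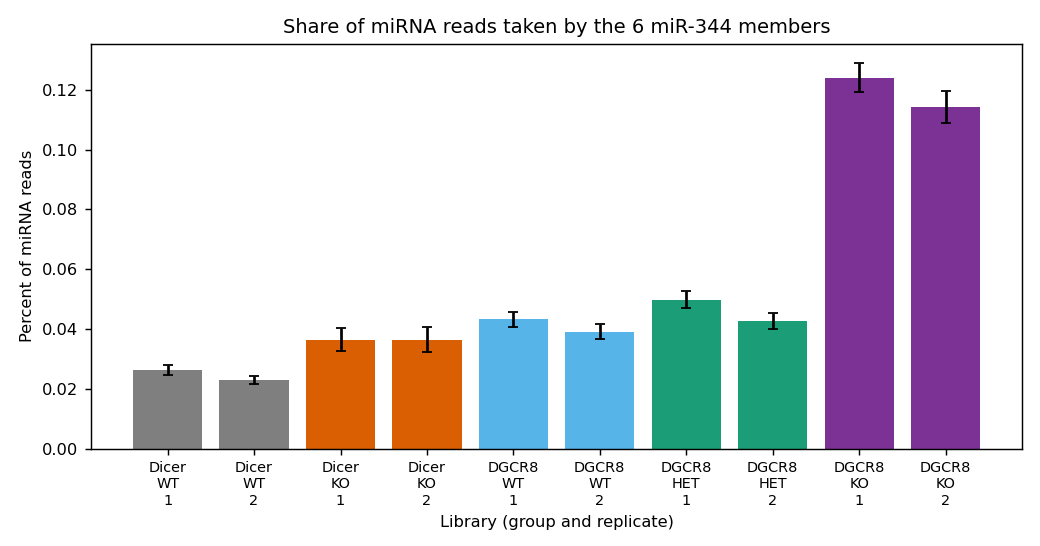
Percent of all miRNA reads taken by the 6 members in each library, with exact 95% intervals for counting error as bars. The DGCR8 KO libraries reach 0.124% and 0.114%, and the other 8 libraries stay between 0.0229% and 0.0497%.

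DGCR8 HET lay between the wild type and the knock-out for some members and beside the wild type for others. Both of its libraries were above DGCR8 WT for 3 of 6 members, miR-344-3p, miR-344d-3p and miR-344f-3p, as for 18.1% of all tested names. The log2 fold changes were 0.0777 ± 0.16 for miR-344-3p, 0.52 ± 0.27 for miR-344f-3p, 0.52 ± 0.49 for miR-344f-5p and 0.47 ± 0.50 for miR-344d-3p. They were −0.12 ± 0.25 for miR-344c-3p and −0.15 ± 0.47 for miR-344b-3p. In edgeR 0 of the 557 names were called in this comparison, with 23 names at an unadjusted p below 0.05, none of them a member. Both DGCR8 KO libraries lay above DGCR8 HET for all 6 members, as for 27.3% of all tested names. DGCR8 KO against DGCR8 HET gave 0.96 ± 0.16 for miR-344-3p, 1.21 ± 0.49 for miR-344d-3p, 1.01 ± 0.44 for miR-344f-5p, 0.95 ± 0.27 for miR-344f-3p, 0.77 ± 0.25 for miR-344c-3p and 0.72 ± 0.45 for miR-344b-3p. Both comparisons share libraries with the one the family was chosen from, so their values are descriptions.

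The wild types of the lines differed too, with both DGCR8 WT libraries above Dicer WT for 4 of 6 members, as for 21.9% of all tested names. DGCR8 WT against Dicer WT gave 1.37 ± 0.52 for miR-344d-3p, 1.31 ± 0.26 for miR-344c-3p, 0.74 ± 0.28 for miR-344f-3p and 0.54 ± 0.16 for miR-344-3p. It gave 0.37 ± 0.49 for miR-344f-5p and −0.28 ± 0.43 for miR-344b-3p. Line, dissection and library preparation cannot be told apart here, and the vessel and blood list and the choroid plexus and epithelial list were lower in DGCR8 WT than in Dicer WT, as given above. Their part in these values was not tested. The excess of the DGCR8 KO log2 fold change over that of Dicer KO was largest for miR-344b-3p, at 2.57 ± 0.84, followed by miR-344f-5p at 1.41 ± 0.76 and miR-344-3p at 1.00 ± 0.23, and was −0.46 ± 0.71 for miR-344d-3p. This excess contains the comparison used for the choice and is given without a test. Its largest values rest on few Dicer KO reads, 1 and 2 of miR-344b-3p and 8 and 1 of miR-344f-5p.

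**Figure D4:**
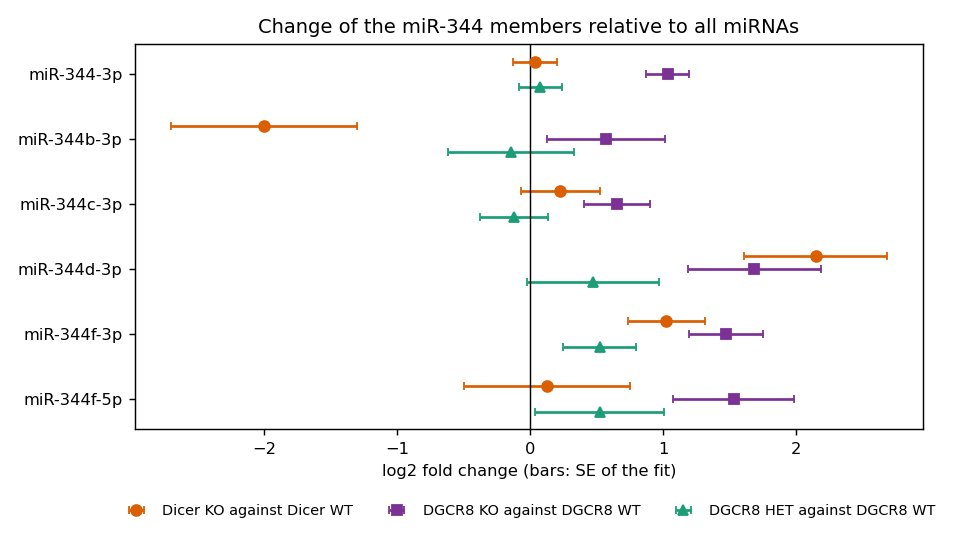
Log2 fold change of each member, with the SE of the fit as bars, in Dicer KO against Dicer WT, DGCR8 KO against DGCR8 WT and DGCR8 HET against DGCR8 WT. All 6 squares of DGCR8 KO lie above 0, from 0.57 to 1.69, while the circles of Dicer KO run from −1.998 for miR-344b-3p to 2.15 for miR-344d-3p.

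Ratios between members need no library scaling. miR-344d-3p had 0.106 and 0.0994 reads per read of miR-344-3p in DGCR8 WT, 0.161 and 0.109 in DGCR8 HET, and 0.164 and 0.159 in DGCR8 KO. In the Dicer line the same ratio was 0.0450 and 0.0722 in the wild type and 0.0924 and 0.4497 in the knock-out, the last being the highest of any library. The ratio of miR-344f-3p to miR-344-3p was 0.117 and 0.104 in Dicer WT, 0.249 and 0.183 in Dicer KO, 0.129 and 0.125 in DGCR8 WT, and then 0.177 and 0.168 in DGCR8 KO. In both lines, then, the knock-out libraries had more miR-344d-3p and more miR-344f-3p per read of miR-344-3p than the wild types. Both DGCR8 HET libraries also lay above DGCR8 WT for each ratio, at 0.196 and 0.150 for miR-344f-3p, so in that line this was not particular to the knock-out. The DGCR8 KO ratios belong to the comparison the family was chosen from and are descriptions. How often ratios of other names separate in this way was not computed. For miR-344c-3p the ratio was 0.0987 and 0.0879 in DGCR8 WT, against 0.0805 and 0.0630 in DGCR8 KO, with the knock-out on the low side. DGCR8 HET, at 0.0873 and 0.0755, also lay below DGCR8 WT. In the Dicer line this ratio overlapped, at 0.0450 and 0.0659 in the wild type and 0.0602 and 0.0651 in the knock-out. For each of these ratios DGCR8 HET and DGCR8 KO overlapped.

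Other miRNAs described as made without DGCR8 formed a list of 18, of which 13 were tested. In Dicer KO 5 of these 13 fell and 0 rose, where 16% of all tested names were called lower, and all 13 had a log2 fold change below 0, with a median of −0.80. In DGCR8 KO 0 of 13 were called, where 8.8% of all tested names were called higher. That 0 were called higher follows from how the family was chosen, so nothing is read from it. All 13 had a value above 0, as did 284 of all 557 names. Their median was 0.39, against 0.0167 over all 557 names. miR-484, made from a capped hairpin, fell in Dicer KO (−0.90 ± 0.12, adjusted p = 8.33e-04), as did miR-1983, derived from a tRNA gene (−1.52 ± 0.16, adjusted p = 2.62e-04). miR-320-3p, also from a capped hairpin, was not called (−0.26 ± 0.17, adjusted p = 0.258). The miR-344 members stood above 0 in DGCR8 KO together with the rest of that list, in the comparison the family was chosen from. In Dicer KO 5 of 6 stood above 0, as did 275 of all 557 names, while the rest of the list stood below. Among the members above 0, miR-344-3p, miR-344c-3p and miR-344f-5p lay less than their SE from 0, as given above. With no filter on counts 3 of 6 stood above 0, and with vessel and blood scaling 1 of 6. Whether the lists differ was not tested.

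The seed partner of miR-344d-3p was far more abundant. miR-410-3p had a mean of 3054 CPM in Dicer WT and 4238 CPM in Dicer KO (0.47 ± 0.19, adjusted p = 0.0942), and of 4226 CPM in DGCR8 WT and 6552 CPM in DGCR8 KO (0.63 ± 0.19). miR-344d-3p, at a mean of 107 CPM in DGCR8 KO, was thus far below the miRNA that shares its seed. By contrast, RefSeq gives the seed GAUCUAG to no mouse miRNA besides miR-344-3p and miR-344c-3p.

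The suffixes of the reads, which were not used in choosing the family, set miR-344f-3p apart from the other members. Of its 1247 reads, 71.1% ended in added T alone (T, TT or TTT) and 11.4% had no addition. In single libraries the T share was 66.7% and 72.0% in Dicer WT, 67.7% and 64.5% in Dicer KO, 77.6% and 70.1% in DGCR8 WT, 67.7% and 72.2% in DGCR8 HET, and 69.1% and 77.1% in DGCR8 KO. It was thus high in every library and overlapped between the genotypes of a line. The base after the mature sequence in the Mir344f hairpin printed above is A, so the T does not match the hairpin. Reads with 1 added A, which does match, numbered 70, and those with C or CT numbered 73 and 60. The table does not give the mature annotation that its suffixes refer to, so the RefSeq end may differ from the end the authors used.

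Among the 557 tested names 51 had a higher T share than miR-344f-3p, and the median share was 6.67%. Among the 280 whose next hairpin base is known and is not U in any copy, 10 had a higher share and the median was 4.15%. miR-344f-5p, from the same hairpin, had 35.9% of its 181 reads in T, and 34.8% without addition. miR-344-3p had 84.6% of reads without addition, and its T share ran from 8.09% to 15.4% over libraries. miR-344d-3p and miR-344c-3p were mostly unextended, with 91.8% and 98.2% of reads without addition, the latter higher than in all but 28 of the tested names. miR-344b-3p, with 138 reads, had 70.3% without addition. Of the 1240 added reads of miR-344-3p, 248 matched the bases that follow in one of its hairpins, against 55 of the 85 added reads of miR-344d-3p.

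Across genotypes the T share of miR-344-3p was 9.59% and 9.63% in Dicer WT, against 11.2% and 15.4% in Dicer KO. It was 12.03% and 13.3% in DGCR8 WT, 10.3% and 11.1% in DGCR8 HET, and 10.7% and 8.09% in DGCR8 KO. Both Dicer KO libraries thus lay above Dicer WT, and both DGCR8 KO libraries below DGCR8 WT. The Dicer KO shares rest on 28 and 26 reads, and their exact intervals for counting error overlapped those of both Dicer WT libraries. The interval of DGCR8 KO replicate 1 overlapped those of DGCR8 WT, while that of replicate 2 (6.63% to 9.77%) lay below them. How many other names separate in this way was not computed. Over all other miRNAs together the T share was 24.4% and 22.0% in Dicer WT, 23.3% and 26.1% in Dicer KO, 21.6% and 20.9% in DGCR8 WT, and then 21.3% and 21.8% in DGCR8 KO, with overlap in each line. With 2 libraries a group these shares were not tested.

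**Figure D5:**
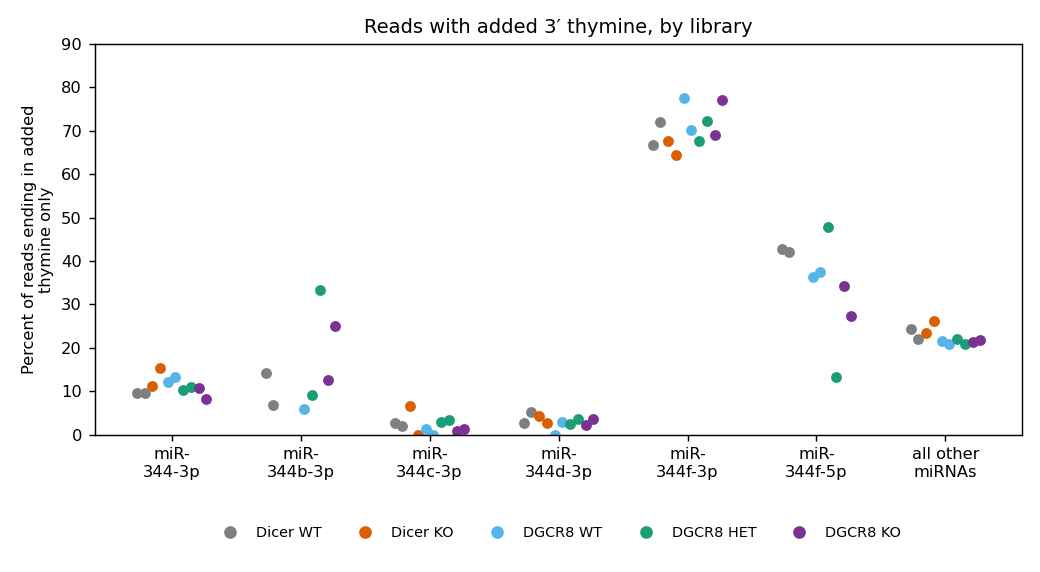
Percent of reads that end in added thymine only, by member and library, with colours for the groups, for members with at least 10 reads in a library, beside all other miRNAs. miR-344f-3p lies between 64.5% and 77.6%, and miR-344d-3p and miR-344c-3p lie below 7% in every library shown.

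The members were also compared in pattern with the 408 other tested miRNAs that had a mean of at least 10 CPM, by Pearson's r of log2 CPM over the 10 libraries. These libraries form 5 groups and share their scaling, so r is a description. Nearest to miR-344-3p were miR-129-1-3p (r = 0.93), miR-138-5p (0.91), miR-551b-3p (0.90), miR-137-3p (0.90) and miR-129-5p (0.90). miR-129, miR-137 and miR-138 are known from neurons. However, miR-137-3p had the highest log2 fold change of the cortical progenitor and neuron list, 0.94 in Dicer KO and 1.08 in DGCR8 KO. That list as a whole went the other way, with medians of −0.86 and −0.84 and 4 of 7 called lower in each knock-out. Nearest to miR-344d-3p were miR-434-3p (0.96), miR-7a-2-3p (0.94), miR-487b-3p (0.94), miR-668-3p (0.93) and miR-329-5p (0.92). Of these miR-434, miR-487b, miR-668 and miR-329 belong to the imprinted Dlk1-Dio3 region, where miR-410 lies too. Within the family miR-344-3p was closest to miR-344c-3p (0.92) and miR-344f-3p (0.88) and less so to miR-344d-3p (0.67).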

How the data were processed

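The authors deposited raw read counts per mature miRNA name and 3′ suffix for 10 libraries. Per the labels' protocols, libraries were made from 1000 ng of total RNA with a TruSeq small RNA kit. Bowtie and GRCm38 are named, per the submitters' processing notes, and the table's name names IsomiRage. Versions, mismatch settings and the miRNA annotation are not stated there.

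From these counts, sums per name were tested in R 4.3.3 with edgeR 4.0.16 (filterByExpr, minimum count 10 and minimum total 15, TMM, quasi-likelihood test, 1 mean per group over all 10 libraries), with Benjamini-Hochberg adjustment and a threshold of 0.05. The fit had 5 residual and 4.20 prior degrees of freedom and a biological coefficient of variation of 0.23. P-values are two-sided and test a difference between group means against a spread estimated, in the reported fit, over all 5 groups. The fit was tested on simulated data. Alternatives were DESeq2 1.42.0 and its size factors, library totals, vessel and blood scaling, no filter, reads without additions, libraries thinned to 800623 reads, lines fitted apart, a replicate block and leaving out each library. Vessel and blood scaling used TMM within that list. Intervals cover counting error only.

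Members and lists were chosen with earlier results of these data known. Named miRNAs were the 6 members, the 5 most alike to miR-344-3p and to miR-344d-3p, and miR-484, miR-320-3p and miR-1983. miR-410-3p was named after its values were seen.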

Additional observations from a re-analysis of the deposited data

How the results depend on the processing

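In Dicer KO the number of members called was 2. It was 1 in reads without additions, which keep 142 of the 1247 reads of miR-344f-3p, and 1 with the lines fitted apart. It ran from 1 to 3 when 1 library was left out. With the replicate block it was 3, miR-344b-3p being the addition (−1.98, adjusted p = 0.0292). Replicate numbers were not treated as pairs: deviations from group means correlated at 0.0608 between the Dicer groups and from −0.05002 to 0.17 within the DGCR8 line. Scaled to vessel and blood miRNAs it was again 2, but both were lower, and with no filter 1 was higher and 1 lower. Under that scaling the log2 fold changes turned to −1.39 for miR-344-3p, −1.21 for miR-344c-3p, −0.38 for miR-344f-3p and −1.27 for miR-344f-5p in Dicer KO, and to −0.45 for miR-344-3p in DGCR8 HET. With no filter miR-344-3p lay at −0.13 and miR-344f-5p at −0.0415 in Dicer KO, and miR-344f-5p lay at −0.52 in reads without additions. In thinned libraries, where 4 members were tested, miR-344c-3p lay at 0.31 in DGCR8 HET. Leaving out 1 library gave −0.19 to 0.14 for miR-344-3p and −1.91 to 0.77 for miR-344f-5p in Dicer KO, and −0.63 to 0.47 for miR-344b-3p in DGCR8 HET. In DGCR8 KO against DGCR8 WT all tested members stayed above 0 in each of the 19 alternatives. The cause of these changes was not tested. Depth limits miR-344b-3p and miR-344f-5p most, with as few as 1 read in a library.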
